A study of Mus musculus with 6 samples.

Results

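A set of 10 genes whose products act on T cells and macrophages was followed in RNAseq of immortalized mouse pancreatic fibroblasts: the surface ligands Cd274, Cd276, Pvr and Cd47, the ecto-enzyme Nt5e, the galectins Lgals1 and Lgals9, and the secreted macrophage factors Csf1, Gas6 and Mif. They were chosen by symbol from the raw count table, which lists 14831 genes and holds all 10 members. The study compared 3 libraries labelled WT with 3 whose genotype is given as Gli2-/-;Gli3-/- (KO), from separate confluent wells in DMEM with calf serum, on a mixed strain background. According to the methods, such lines were derived from the adult pancreas of mice with floxed Gli alleles, immortalized, infected with GFP adenovirus and dsRed lentivirus (WT) or with GFP and Cre adenoviruses under the CMV promoter (KO), and sorted. The number of lines behind the wells is not given in the sources used here, so the p values measure the spread between wells, which is not that between independently made lines. All values come from fibroblast cultures alone, without the macrophages and T cells that these ligands address.

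The targeted genes go against the labels. Gli2 averaged 27.1 ± 1.19 CPM (counts relative to library size, scaled by edgeR's TMM factors; SD, n = 3) in the WT-labelled wells and 56.1 ± 1.96 in the KO-labelled wells, and Gli3 averaged 12.5 ± 0.0440 and 40.8 ± 1.64 CPM. Counts per gene also include exons outside any deleted part, so they do not show whether recombination took place. Of the Hedgehog (HH) targets, Gli1 fell from 1.31 ± 0.169 to 0.249 ± 0.141 CPM, and Ptch1 fell too (log2 fold change -1.52, SE 0.04, adjusted p = 2.16e-11, KO-labelled against WT-labelled). Libraries are therefore named by label only, as WT-labelled or KO-labelled wells, and every direction below is that of the labels, which the levels of Gli2 and Gli3 do not bear out. Totals ran from 31728420 to 41035931 counts per library. Replicate numbers follow the order of the libraries within each label, and equal numbers do not mark a pair. Of 10 fibroblast markers 8 were listed in the table, without Pdpn and Fap. Their summed level was 44800 to 47200 CPM in the WT-labelled wells and 36800 to 38500 in the KO-labelled wells, with Col1a1 and Col1a2 the highest. Col1a1 was alike in both groups (log2 fold change 0.01), and Col1a2 (-0.19) and Vim (-0.13) were slightly lower in the KO-labelled wells. Dcn (-1.55), Col3a1 (-0.94), Pdgfra (-0.895) and Pdgfrb (-0.66) were clearly lower there. Thy1 had 0 to 19 counts per library and was not tested. The part of these differences in the results below was not tested. Of 12 macrophage markers 5 were listed (55.8 to 60.9 and 52.8 to 54.5 CPM, mostly Lyz2 and Cd14), without Ptprc and Adgre1, and of 7 T and NK cell markers 0 were listed. Of 11 epithelial markers 5 were listed, at 20.2 to 22.7 and 44.0 to 45.5 CPM, without Epcam, Krt18 and Krt19. Their sum was higher in the KO-labelled wells through Krt7 (4.38 ± 0.472 against 23.1 ± 0.257 CPM) and Cela1 (8.04 ± 0.747 against 14.7 ± 0.964), while Sox9 was lower (8.51 ± 0.104 against 6.03 ± 0.446), and the part of these genes' source in the results below was not tested. Of 6 endothelial markers only Vwf was listed, at 0.866 to 1.60 and 0.762 to 0.939 CPM. No list of mesothelial markers was read. The mesothelial marker Msln was far higher in the KO-labelled wells (log2 fold change 6.12, SE 0.06, adjusted p = 3.75e-15). Its part in the results below was not tested.

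Stromal fibroblasts meet immune cells through a small set of ligands. CD274 (PD-L1), CD276 (B7-H3) and PVR (CD155) are surface proteins that engage or modulate receptors of T and NK cells, CD47 binds SIRPα on macrophages and restrains phagocytosis, and CD73, the product of Nt5e, makes extracellular adenosine, which dampens lymphocytes. Galectins cross-link glycans on immune cells, CSF1 is the growth and survival factor of macrophages, GAS6 bridges phosphatidylserine on dying cells to the receptor kinases TYRO3, AXL and MERTK, and MIF is a cytokine that signals through CD74.

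Of the 10 members, 7 differed between the groups at an adjusted p under 0.05 (edgeR's quasi-likelihood test, Benjamini-Hochberg over 14289 genes), 5 upward and 2 downward. That rule was met by 58.7% of all genes tested, 29.9% of all genes upward and 28.8% downward. In bulk RNA, fewer cells with a transcript and less of it per cell cannot be told apart. A change of at least 1.5-fold besides was met by 2 members, Nt5e and Gas6, both higher in the KO-labelled wells, where 17.7% of all genes met it and 11.6% did so upward. The median log2 fold change (log2FC, KO-labelled minus WT-labelled, with its standard error, SE, where given) was 0.23 over the members and 0.00 over all genes, and the median size of the change was 0.35 and 0.22 on the log2 scale. The members' shares are thus near those of all genes, and in 7 members the CPM of the groups did not overlap, as was the case for 64.2% of all genes tested. What differs between the members is the size of the change, which ranged from 53.3-fold for Nt5e to 1.04-fold for Mif.

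**Figure D1:**
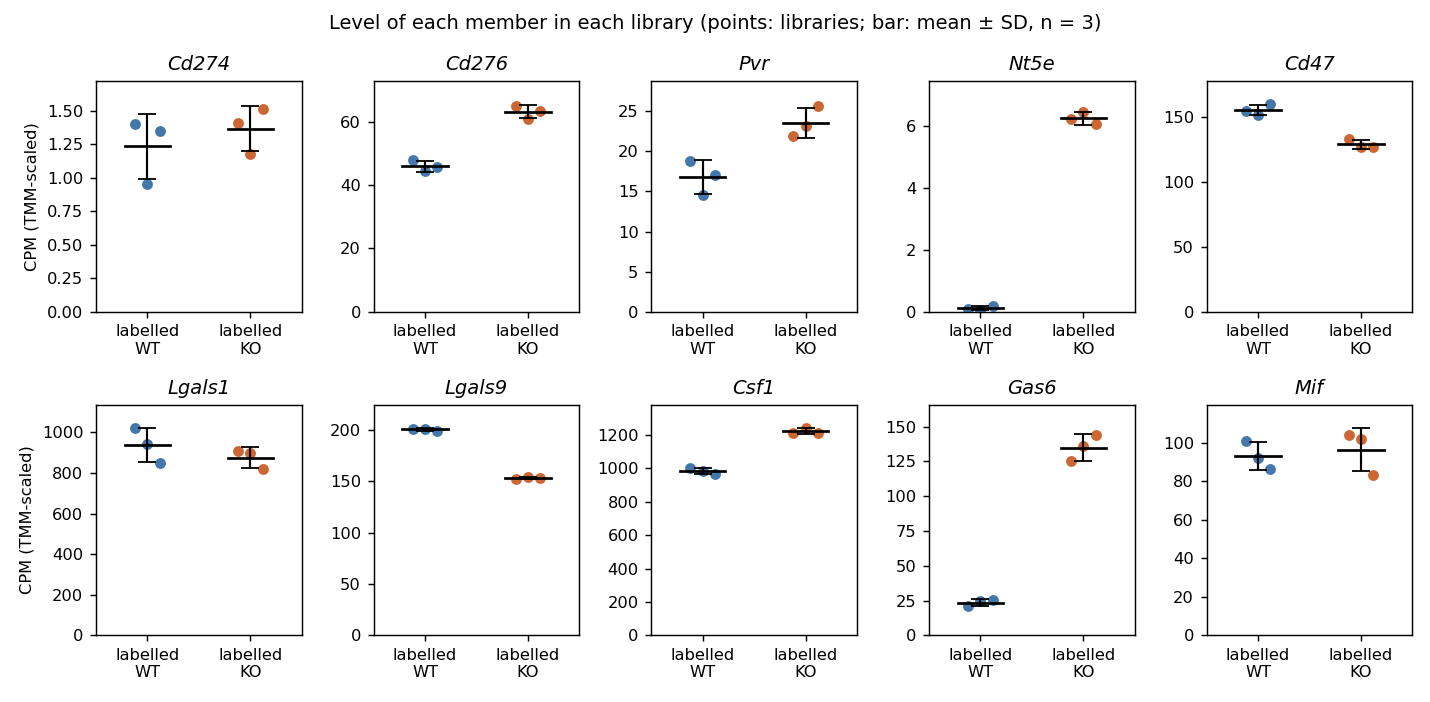
Level of each member in CPM (y axis, from 0, a scale of its own in each panel) in the WT-labelled (blue) and KO-labelled (orange) wells; points are libraries and bars are mean ± SD, n = 3. The groups overlap for Cd274, Lgals1 and Mif and are apart for the other 7 members, with the widest gaps for Nt5e and Gas6.

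Among the macrophage factors, Gas6 changed most. Gas6 had 20.8, 24.7 and 25.1 CPM in the WT-labelled wells and 125, 136 and 144 CPM in the KO-labelled wells. Each KO-labelled well was far above all the WT-labelled wells, and the log2FC was 2.51 (SE 0.07, adjusted p = 9.51e-12), or 5.72-fold, a size above that of 97.2% of all genes tested. Leaving out any 1 library gave 2.43 to 2.56. Only 34 bases of the Gas6 exons (GENCODE M21 on GRCm38, chromosome 8, 13465374 to 13494490, minus strand) overlap another gene, Tmem255b, which is on the opposite strand and is not in the table.

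Csf1 was among the most abundant members and moved much less. Its level was 1000, 981 and 967 CPM in the WT-labelled wells and 1210, 1240 and 1210 CPM in the KO-labelled wells. The wells agreed closely, with a coefficient of variation of 1.70% and 1.67%, so that a 1.24-fold difference stood clear of the spread (log2FC 0.31, SE 0.03, adjusted p = 8.49e-07). Csf1 lies on chromosome 3 from 107741048 to 107760469 on the minus strand.

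Mif did not pass the test. It had 101, 92.2 and 86.6 CPM in the WT-labelled wells and 104, 102 and 83.6 CPM in the KO-labelled wells. The groups overlap, and both the highest and the lowest library were labelled KO. Its log2FC was 0.05 with a 95% interval from -0.11 to 0.21 (adjusted p = 0.563). This value rests on single libraries: it was 0.15 (adjusted p = 0.0228) without replicate 3 labelled KO, and -0.0078 without replicate 1 labelled KO. Reads of Mif (chromosome 10 from 75859353 to 75860240) are uncertain in part, since 6 other genes share a stretch of at least 100 bases with at least 95% identity, 4 of them pseudogenes. The only such gene in the table, C230062I16Rik, had 20 to 42 counts per library, against 2759 to 4256 for Mif.

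The promoters of Gas6 and Csf1, the members of this group that rose, and of Lgals9, the member with the largest decrease, are given for the 250 bases before the RefSeq start on GRCm38.p6, read 5′ to 3′ on the gene's strand. Capitals mark the GC box GGGCGG (or CCGCCC on the other strand) in Gas6 and Csf1 and the core of the interferon-stimulated response element (GAAA, any 2 bases, GAAA) on the other strand in Lgals9.
Gas6 (chr8:13494536-13494785, minus strand): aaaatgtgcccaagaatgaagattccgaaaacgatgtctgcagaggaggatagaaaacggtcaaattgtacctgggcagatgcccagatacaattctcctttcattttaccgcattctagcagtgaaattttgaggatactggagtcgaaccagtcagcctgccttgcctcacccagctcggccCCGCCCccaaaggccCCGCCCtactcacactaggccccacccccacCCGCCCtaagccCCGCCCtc
Csf1 (chr3:107760470-107760719, minus strand): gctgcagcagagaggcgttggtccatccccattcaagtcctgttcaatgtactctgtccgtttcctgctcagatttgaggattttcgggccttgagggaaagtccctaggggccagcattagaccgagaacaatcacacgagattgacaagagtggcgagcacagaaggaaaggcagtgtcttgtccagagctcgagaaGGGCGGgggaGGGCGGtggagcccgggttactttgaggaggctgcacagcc
Lgals9 (chr11:78984925-78985174, minus strand): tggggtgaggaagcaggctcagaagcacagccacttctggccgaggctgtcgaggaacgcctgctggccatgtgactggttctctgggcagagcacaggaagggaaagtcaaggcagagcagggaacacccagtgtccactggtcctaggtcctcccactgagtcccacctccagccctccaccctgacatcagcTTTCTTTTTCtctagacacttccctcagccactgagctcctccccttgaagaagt
Gas6 holds 4 GC boxes here, at -66, -51, -20 and -8 from the start, and Csf1 holds 2, at -51 and -41. The promoter table has windows of 300 bases (50 of them past the start) for 8 members, all but Pvr and Lgals1. A GC box was found in 7 of these 8, Lgals9 being the exception, and in 35.7% of all 32851 promoters. The first share counts genes and the second counts promoters, also of genes not listed here. No test of enrichment was made. In the 250 bases before the start, Lgals9 has 3 CpG pairs, Gas6 and Csf1 have 10 each and the median of all promoters is 6, while the GC content of the 3 is alike, at 58.4%, 54.8% and 56.4%. The interferon element core was found in Lgals9 alone, at -55 and again past the start, and in 3.44% of all promoters. The GLI site core TGGGTGGTC (0.253% of all promoters), the gamma-activated site TTCNNNGAA (8.30%) and the TATA box TATAAA (13.6%), searched on both strands, were found in 0 of the 8. A match of letters is not a bound site, and the absence of one says only that the letters are not in this window. The Nt5e window lies within an exon of a GENCODE transcript and is not shown. By the GENCODE gene bounds, the windows of Cd276 and Cd47 also lie within their genes, and that of Lgals9 reaches into its gene. All of these windows are included in the shares above.

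The receptors and partners of these factors were read from a list of 74 genes in 8 role groups. Of the list, 52 genes were in the table and 49 had enough counts to be tested. An adjusted p under 0.05 was met by 37, 23 upward and 14 downward, and 16 also changed at least 1.5-fold, 8 in each direction. Over the other settings and with each library left out, between 12 and 19 genes of the list met both limits. For all genes these shares were 58.7% and 17.7%, with 6.10% at least 1.5-fold lower. Of the 8 partners higher in the KO-labelled wells, Icosl, Lgals2 and Alpl had at most 11 counts in each WT-labelled well. They entered the test through their counts in the KO-labelled wells, which favours a rise. They were not tested where 10 counts were required in every library.

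**Figure D2:**
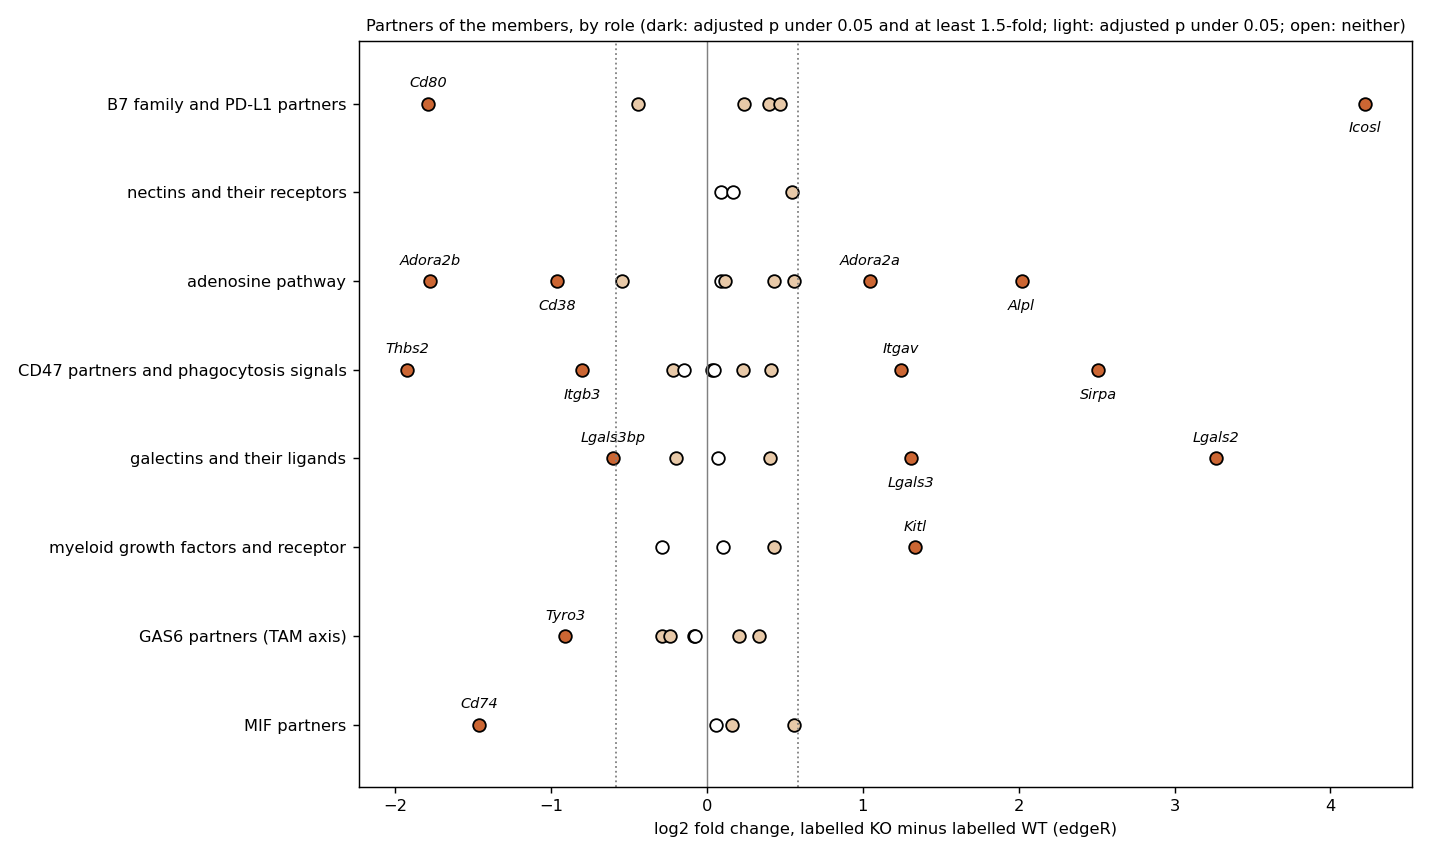
Fitted log2FC (x axis, labelled KO minus labelled WT) of the 49 tested partner genes, in rows by role; dark points passed the adjusted p and the 1.5-fold limit, light points the adjusted p only, open points neither. The 16 dark points are named and fall evenly on both sides of 0.

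The GAS6 receptors did not move together. Axl, the most abundant of them, had 622, 585 and 582 CPM in the WT-labelled wells and 715, 691 and 664 CPM in the KO-labelled wells, a log2FC of 0.21 (SE 0.04, adjusted p = 2.53e-04). Mertk rose too, from 3.70, 4.06 and 4.95 CPM to 5.17, 5.04 and 5.85 CPM (log2FC 0.33, SE 0.12, adjusted p = 0.0281). Tyro3 fell, from 12.6 ± 0.761 to 6.68 ± 0.673 CPM, a log2FC of -0.91 (SE 0.09, adjusted p = 1.32e-06). Pros1, which encodes protein S, the other ligand of these receptors, fell slightly, with 71.4, 75.1 and 76.4 CPM against 64.0, 63.3 and 62.2 CPM (log2FC -0.23, adjusted p = 1.09e-04). The 2 ligands thus went opposite ways: per length, Gas6 was below Pros1 in the WT-labelled wells (35.5 ± 4.16 against 69.8 ± 3.80 TPM) and above it in the KO-labelled wells (209 ± 15.1 against 60.9 ± 0.803 TPM).

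For CSF1, the receptor gene Csf1r was near 1 CPM in both groups (1.00 ± 0.0868 and 1.07 ± 0.0915) and did not pass the test (log2FC 0.11, adjusted p = 0.651). Il34, the other ligand of that receptor, had 40, 33 and 32 counts in the WT-labelled wells and 31, 37 and 30 in the KO-labelled wells (log2FC -0.29, adjusted p = 0.224). Csf2 and Csf3 were not listed. Kitl, the ligand of the receptor KIT, rose from 143 ± 12.1 to 361 ± 12.6 CPM (log2FC 1.34, SE 0.05, adjusted p = 3.15e-10). On the MIF side, the homolog Ddt rose from 6.87 ± 0.400 to 10.1 ± 0.871 CPM (log2FC 0.56, adjusted p = 1.12e-04), and the log2FC of Ddt passed the 1.5-fold limit with upper-quartile factors (0.614) or total counts (0.592), without replicate 1 labelled WT (0.595) and without replicate 1 labelled KO (0.622). Cd74, which encodes the MIF receptor and the invariant chain of class II antigen presentation, fell from 2.87, 3.25 and 2.66 CPM to 1.33, 0.960 and 0.909 CPM (log2FC -1.46, SE 0.17, adjusted p = 1.03e-05).

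Of the 3 ligands of T and NK cell receptors, Cd276 and Pvr rose modestly and Cd274 did not pass the test. Cd276 had 47.9, 44.5 and 45.6 CPM in the WT-labelled wells and 65.1, 61.0 and 63.3 CPM in the KO-labelled wells. The groups did not overlap and the log2FC was 0.46 (SE 0.04, adjusted p = 8.81e-07). Of its exons (chromosome 9 from 58524298 to 58555437), 416 bases overlap Gm10657 on the opposite strand, which had 4 to 16 counts per library against 1457 to 2543 for Cd276. Pvr (chromosome 7 from 19903578 to 19921160) had 18.8, 14.5 and 17.1 CPM in the WT-labelled wells and 21.9, 23.2 and 25.6 CPM in the KO-labelled wells. Its wells spread more, by 12.9% of the mean among those labelled WT, and the gap between the groups was narrow beside that spread (log2FC 0.49, SE 0.09, adjusted p = 2.97e-04).

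Cd274 (chromosome 19 from 29367455 to 29388095) was the least abundant of these ligands, with 44, 32 and 43 counts in the WT-labelled wells and 50, 49 and 50 in the KO-labelled wells. That is 1.40, 0.955 and 1.35 CPM against 1.41, 1.18 and 1.51 CPM, and the groups overlap. The log2FC was 0.14 with a 95% interval from -0.28 to 0.56 (adjusted p = 0.563), so that neither a small decrease nor a rise of nearly 1.5-fold lies outside the interval. Its sign rests on replicate 2 labelled WT, without which it was -0.02. Stretches of at least 100 bases with at least 95% identity to the Cd274 transcript are in 21 other genes, 6 of them listed. Some of these few reads could therefore have been split. Of the Cd274 exons, 511 bases overlap AC119228.1 on the opposite strand, which is not in the table. The strand setting of the counting is not given in the sources used here.

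The other tested genes of the B7 family and the PD-L1 partners all passed the test, 4 upward and 2 downward, as did 58.7% of all genes. Cd80, a ligand of CD28 and CTLA4, had 36.2, 39.1 and 33.6 CPM in the WT-labelled wells and 10.4, 10.5 and 10.6 CPM in the KO-labelled wells, a log2FC of -1.79 (SE 0.06, adjusted p = 1.19e-10). It was far above Cd274 in both groups, at 37.6 ± 2.46 against 1.31 ± 0.261 TPM and at 11.2 ± 0.124 against 1.49 ± 0.186 TPM. Icosl, the ligand of ICOS, had 1, 2 and 0 counts in the WT-labelled wells and 12, 41 and 18 in the KO-labelled wells, a ratio of 20.8 with a 95% counting interval from 6.84 to 103 (adjusted p = 2.05e-04). Without replicate 2 labelled WT that ratio was 40.8, and without replicate 3 labelled WT it was 13.9. Vsir, the gene of the B7 family member VISTA, rose from 14.3 ± 1.51 to 19.8 ± 0.355 CPM (log2FC 0.47, SE 0.07, adjusted p = 8.49e-05). Tnfrsf14, the gene of the BTLA ligand HVEM, fell by 0.44 on the log2 scale (adjusted p = 0.0204). Pdcd1lg2 (PD-L2) and Cd86 were not listed. Cmtm6 and Cmtm4, whose products stabilize PD-L1 at the cell surface, rose by 0.24 and 0.40 on the log2 scale (adjusted p = 3.32e-04 and 6.31e-07). Nectin2, which like PVR is a ligand of TIGIT and DNAM1, rose from 52.8 ± 3.52 to 77.1 ± 2.82 CPM (log2FC 0.55, adjusted p = 6.49e-07; 0.603, past the 1.5-fold limit, without replicate 1 labelled WT and 0.606 with upper-quartile factors), while Nectin1 and Nectin3 did not pass (log2FC 0.17 and 0.09, adjusted p = 0.0714 and 0.290).

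**Figure D3:**
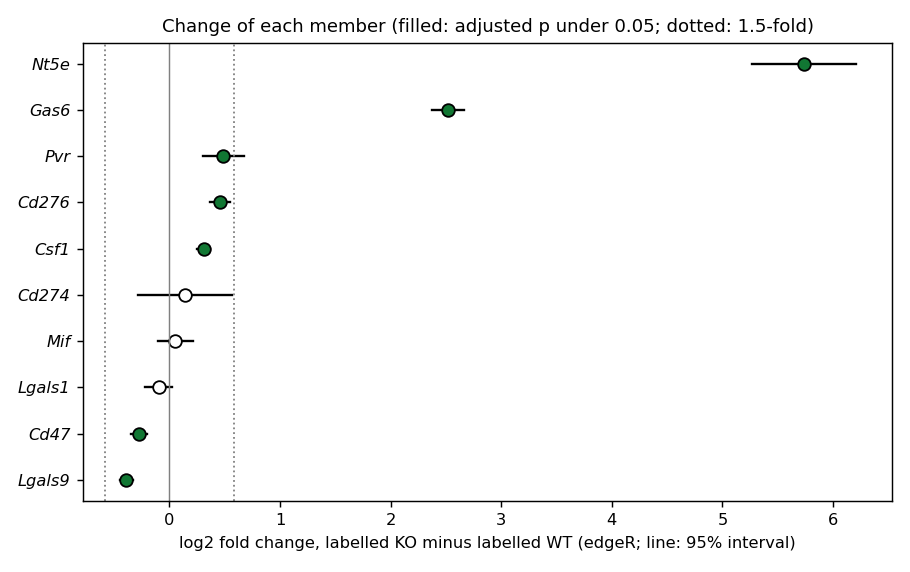
Fitted log2FC (x axis, labelled KO minus labelled WT) of the 10 members with its 95% interval; filled points had an adjusted p under 0.05 and dotted lines mark 1.5-fold. Nt5e and Gas6 lie beyond the dotted line, and the intervals of Cd274, Mif and Lgals1 span 0.

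Nt5e, the gene of CD73, was nearly absent from the WT-labelled wells. It had 3, 2 and 6 counts there and 220, 269 and 200 among the KO-labelled wells. These are 0.115 ± 0.0661 and 6.24 ± 0.200 CPM (SD, n = 3 each). The ratio of the summed counts was 55.1, with a 95% counting interval from 30.6 to 111, and the fitted log2FC was 5.74 (SE 0.22, adjusted p = 2.35e-10), a size above that of 99.4% of all genes tested. Of the WT-labelled wells, 2 were at or under 3 counts, a floor of 0.0896 to 0.0957 CPM in this group, so that the size is less sure than the direction: without replicate 3 the ratio was 81.2 (34.6 to 251) and without replicate 2 it was 44.0 (23.0 to 96.6). Nt5e lies on chromosome 9 from 88327197 to 88372092 on the plus strand, and no exon of another gene overlaps it.

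Around CD73 the adenosine pathway was unevenly expressed. Entpd1, the gene of CD39, which makes the AMP that CD73 uses, was not listed, and Entpd2 had 1 to 14 counts per library and was not tested. Alpl, an alkaline phosphatase that can also release adenosine, had 9, 7 and 11 counts against 44, 51 and 31, with a log2FC of 2.02 (SE 0.27, adjusted p = 2.87e-05). Cd38, whose product consumes NAD, fell from 3.05 ± 0.345 to 1.57 ± 0.129 CPM (log2FC -0.96, adjusted p = 8.00e-05). The adenosine receptors diverged at low levels: Adora2a had 23, 22 and 28 counts against 62, 60 and 50 (log2FC 1.05, adjusted p = 4.23e-04), and Adora2b had 11, 21 and 32 against 11, 8 and 2 (log2FC -1.77, adjusted p = 0.00629). Slc29a1, the more abundant of the listed equilibrative nucleoside transporters, fell by 0.54 on the log2 scale (adjusted p = 3.63e-07). Of the 9 genes of this group tested, 8 passed the test, 5 higher and 3 lower, where 58.7% of all genes passed, 29.9% upward and 28.8% downward.

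Cd47 fell slightly. It had 155, 152 and 160 CPM in the WT-labelled wells and 133, 127 and 127 CPM in the KO-labelled wells. The groups did not overlap, and the log2FC was -0.27 (SE 0.03, adjusted p = 1.66e-05), or 1.21-fold. Its receptor gene Sirpa changed far more and upward, from 0.957, 1.22 and 1.19 CPM to 6.38, 5.93 and 7.06 CPM (log2FC 2.51, SE 0.14, adjusted p = 7.78e-09). Sirpa is best known from macrophages. Of the macrophage markers, Ptprc and Adgre1 were not listed, Lyz2 (41.1 ± 3.22 against 36.6 ± 0.783 CPM) and Cd14 (15.7 ± 0.770 against 13.9 ± 0.534) were lower in the KO-labelled wells, and Cd68 (1.17 ± 0.0298 against 1.55 ± 0.205 CPM, adjusted p = 0.0522) and Aif1 (0.271 ± 0.130 against 0.388 ± 0.0483, adjusted p = 0.229) had higher means there without passing the test. Their part in the Sirpa result was not tested. The other CD47 ligand, thrombospondin 1, was very abundant, and Thbs1 had 4010, 4060 and 4100 CPM against 3360, 3530 and 3600 CPM (log2FC -0.21, adjusted p = 4.17e-05). Thbs2 fell from 2.87, 3.64 and 3.63 to 0.904, 0.840 and 0.939 CPM (log2FC -1.92, adjusted p = 4.69e-07). The integrin chains αv and β3, which form a complex with CD47, went opposite ways, with Itgav at 270 ± 0.914 and 641 ± 13.5 CPM (log2FC 1.25, adjusted p = 2.48e-12) and Itgb3 at 43.8 ± 1.77 and 25.1 ± 0.930 CPM (log2FC -0.80, adjusted p = 1.50e-08). Qpctl, whose product modifies CD47 for SIRPα binding, rose by 0.23 on the log2 scale (adjusted p = 0.00916).

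The galectins differed from each other. Lgals9 had 201, 201 and 199 CPM in the WT-labelled wells and 152, 154 and 153 CPM in the KO-labelled wells. It was the most even member between wells, with a coefficient of variation of 0.549% and 0.747%, and its log2FC of -0.39 (SE 0.03, adjusted p = 1.08e-07) was the largest decrease among the members. Lgals9 lies on chromosome 11 from 78962974 to 78984946. Lgals1 (chromosome 15 from 78926725 to 78930465) had 1020, 944 and 851 CPM in the WT-labelled wells and 910, 901 and 818 CPM in the KO-labelled wells, and the groups overlap. The log2FC was -0.10 with a 95% interval from -0.22 to 0.03 (adjusted p = 0.166), and without replicate 3 labelled WT it was -0.16 (adjusted p = 0.0105).

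Lgals3, which encodes the chimeric galectin, rose from 36.5, 32.0 and 32.1 CPM to 88.2, 81.3 and 79.1 CPM (log2FC 1.31, SE 0.06, adjusted p = 7.71e-10). Lgals3bp, the gene of a secreted galectin ligand, fell from 111 ± 20.5 to 73.3 ± 0.237 CPM (log2FC -0.60, adjusted p = 1.22e-04), and without replicate 3 labelled WT, the highest, the log2FC was -0.45, under the 1.5-fold limit. It was also under that limit with upper-quartile factors (-0.543), total counts (-0.566) and voom (-0.583). Lgals2 had 2, 3 and 3 counts in the WT-labelled wells and 30, 34 and 27 in the KO-labelled wells, a ratio of 10.0 with a 95% counting interval from 4.87 to 23.9. Havcr2, the gene of the galectin 9 receptor TIM3, was not listed.

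Lgals1 and Mif, the shortest members with 800 and 600 bases in their longest transcripts, were both lowest in replicate 3 of each group. The labels do not link these libraries. Mif lay 0.10 below its group mean on the log2 scale in replicate 3 labelled WT and 0.20 below in replicate 3 labelled KO, and Lgals1 lay 0.14 and 0.10 below. Over 290 tested genes with transcripts under 1000 bases and a mean of at least 10 CPM, the median deviation of these libraries was -0.04 and -0.06, against 0.00 for longer genes in both. The part of transcript length in the spread of Lgals1 and Mif was not tested.

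**Figure D4:**
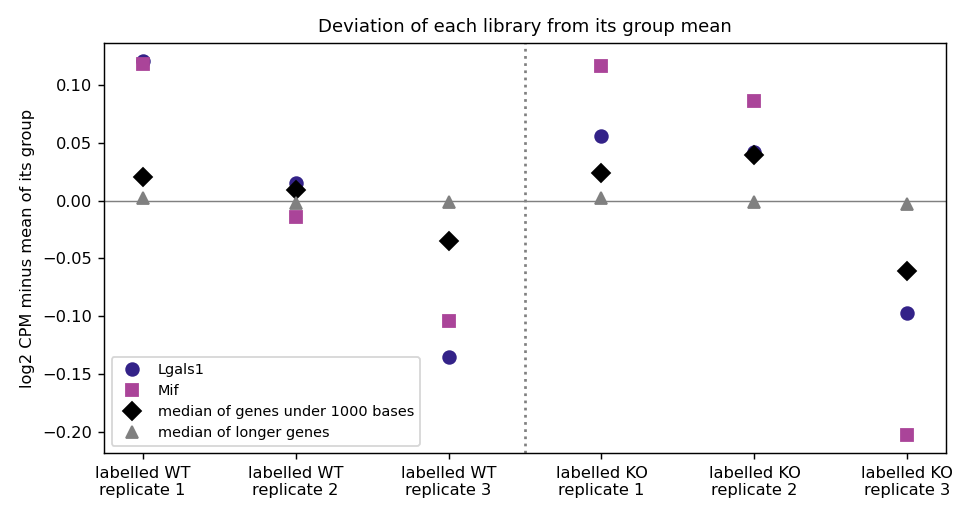
Deviation of log2 CPM from the mean of its group (y axis) in each library (x axis) for Lgals1, Mif, the median of 290 genes with transcripts under 1000 bases and the median of longer genes. Both genes and the median of short genes are lowest in replicate 3 of each group, where longer genes stay at 0.

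Per length, in TPM over the deposited genes (counts divided by the length of the union of annotated exons, then by their sum), the members spanned several orders of magnitude. In the WT-labelled wells the order was Lgals1 (3975 ± 269 TPM), Csf1 (714 ± 4.64), Mif (480 ± 28.1), Lgals9 (360 ± 5.88), Cd47 (95.3 ± 4.42), Cd276 (48.2 ± 1.59), Gas6 (35.5 ± 4.16), Pvr (10.5 ± 1.32), Cd274 (1.31 ± 0.261) and Nt5e (0.0514 ± 0.0307). No neighbours in that order overlapped between their lowest and highest libraries. In the KO-labelled wells the order changed in 2 places: Gas6 moved above Cd47 (81.0 ± 1.99 TPM) and Cd276 (68.1 ± 1.97), and Nt5e (2.86 ± 0.0980) moved above Cd274 (1.49 ± 0.186), again with no overlap between neighbours. Lgals1 and Csf1 ranked above 99.9% and 98.8% of all deposited genes in the WT-labelled wells, while Nt5e ranked above 1.27% in them and 21.1% in the KO-labelled wells.

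**Figure D5:**
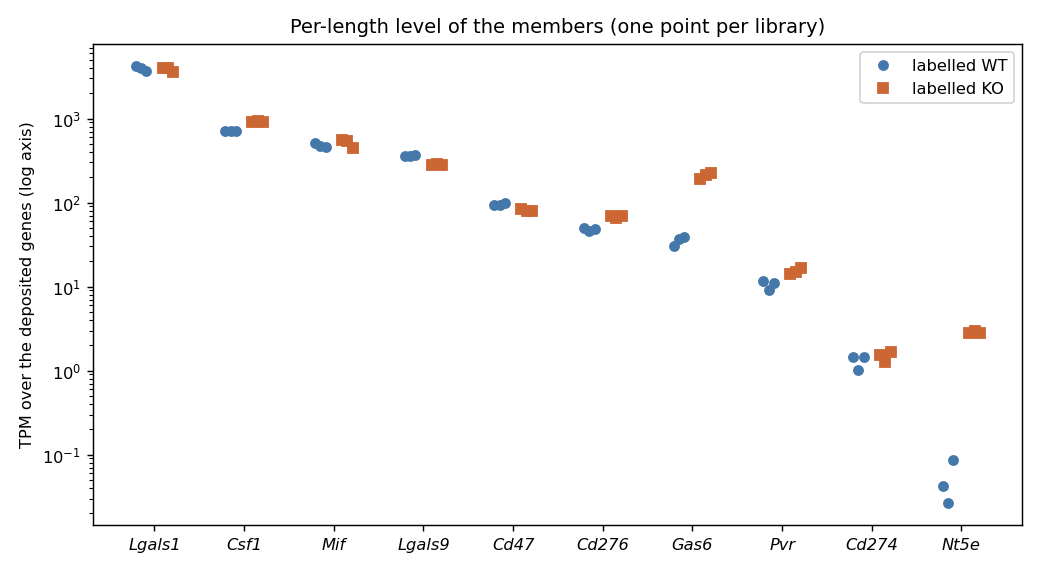
Per-length level of the members (TPM, log axis) in each WT-labelled (blue circles) and KO-labelled (orange squares) well, ordered by their mean in the WT-labelled wells. Gas6 and Nt5e change place in the order, and the other 8 members keep their order among themselves, with smaller changes in level.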

How the data were processed

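Poly-A RNA libraries of 6 wells were grouped by the genotype in their labels. The submitters' processing notes name STAR 2.7.2b, featureCounts, limma and the build GRCm38.p6, and settings, including strand, are not given in the sources used here. The authors deposited raw counts per gene without normalization, with genes of low counts absent, and log2 CPM values from limma's voom, used only as an alternative.

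Counts of all 14831 genes were fitted with edgeR 4.0.16 in R 4.3.3 (TMM factors, filterByExpr, quasi-likelihood F test, labelled KO minus labelled WT), and 14289 genes were tested with Benjamini-Hochberg adjustment. The factors lay between 0.988 and 1.016. Standard errors and 95% intervals follow from the F statistic. The 1.5-fold limit is that of an earlier analysis. Ratios of few counts have exact conditional binomial intervals, which cover counting error only. All 6 libraries were kept. Replicate pairs differed by a chi-square per degree of freedom of 2.50 to 7.74. The highest value in each group was that of replicates 1 and 3 (7.52 labelled WT, 7.74 labelled KO). No permutation test was run, since 3 libraries against 3 allow no exact two-sided p below 0.1. The edgeR step was tested on simulated data.

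Positions, exon lengths and overlaps are from GENCODE M21, which 14822 of the gene identifiers match without version. Genes lacking a symbol took its name. Near-identical transcripts were found with BLAST 2.17.0. Promoters are RefSeq's (GRCm38.p6). The members, the partner and marker lists and the motifs were chosen with earlier results of these data known. Named partners are, by role group, the 2 genes (or fewer) that moved most each way, given an adjusted p under 0.05, a 1.5-fold change and 10 counts or more throughout the higher group, and 12 direct partners. Cd86, Csf2, Csf3, Cmtm4, Cmtm6, Nectin1, Nectin3, Slc29a1, Entpd2, Qpctl, Havcr2, Mertk, Vsir, Tnfrsf14, Ada, Gli1, Ptch1 and single cell type markers were named outside that rule after their values were seen. Alternatives were scaling by RLE, upper quartile or total counts, no filter or 10 counts in every library, a 2-fold limit, DESeq2 1.42.0, limma 3.58.1 on counts (voom) and on the deposited log2 values, the longest transcript as length, and leaving out each library.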

Additional observations from a re-analysis of the deposited data

How the results depend on the processing

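Under 8 other settings (scaling, filter or tool), all 79 fold changes of the members kept direction and side of an adjusted p of 0.05. So did all 180 of the 23 partners named by the rule for named partners. With a library left out, 138 of 138 values of these partners and 55 of 60 of the members did so. Partners named outside that rule, such as Mertk, Tnfrsf14, Ada and Qpctl, were not followed under these settings. Without replicate 2 labelled WT, the log2 fold change of Cd274 was -0.021 (range with each library left out -0.021 to 0.246). Without replicate 3 labelled WT, that of Lgals1 was -0.163 and passed (range -0.163 to -0.035), and that of Mif was -4.7e-05. Mif was -0.0078 without replicate 1 labelled KO and 0.147, past the threshold, without replicate 3 labelled KO. The cause was not tested. Where 10 counts were required in every library, 1 member passed the 1.5-fold limit, because Nt5e was no longer tested. Of the named partners, Icosl, Alpl, Adora2b and Lgals2 were not tested there either. With a 2-fold limit 1456 of all genes passed.

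With the longest transcript as length, levels in libraries labelled WT and labelled KO were 0.984 and 1.12 TPM for Cd274, 36.8 and 51.9 for Cd276, 16.7 and 24.0 for Pvr, 0.0831 and 4.62 for Nt5e, 85.6 and 72.7 for Cd47, 3373 and 3241 for Lgals1, 679 and 864 for Csf1, and 26.7 and 157 for Gas6. Mif labelled WT was at 448 and Lgals9 labelled KO at 286.

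No paired analysis was possible because the labels give no replicate numbers that the groups share. The 1.5-fold limit was crossed under some settings by Ddt, Nectin2 and Lgals3bp, as given beside them. Near 1 CPM the intervals are wide, as for Cd274 (-0.28 to 0.56), although Ada, at 1.25 CPM in the wells labelled WT, passed with a log2 fold change of 0.56 (adjusted p = 0.0153).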
